A study of Mus musculus with 19 samples.

Results

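BAP1 knockout clone 4 is 1 of 4 clones that were made with CRISPR from Melan-a, an immortalised line of mouse melanocytes, and it was compared here with the unedited parental line (WT). Clone 4 and the parental line had 2 cultures each, so 4 of the 19 samples of the series enter the comparison directly. The 6 libraries of clones 1 to 3 served as a reference and to estimate the spread. Clone 4 carries the genotype BAP1 KO, the parental line is BAP1 wild type, and neither was treated with a drug. Of 13202 genes in the deposited table, 10803 had a mean value at least 1 above the table's minimum and were tested, and 2399 did not. The series asked how loss of BAP1 and the site of a tumour, eye or skin, act in mouse melanocytic cells. Its DNA sequencing and its single-cell data from tumours are not analysed here.

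BAP1 is a nuclear deubiquitinase that removes ubiquitin from histone H2A, the mark that Polycomb repressive complex 1 places on the genes it silences. It works with ASXL proteins and with the transcription factors FOXK1 and FOXK2. BAP1 is a tumour suppressor lost in many uveal melanomas that spread, and inherited BAP1 variants predispose to uveal and skin melanoma and to mesothelioma. Melanocytes make melanin in melanosomes under the control of the transcription factor MITF. Clone 4 is 1 line, the 10 libraries include none from a clone with intact Bap1, and the sources used here do not give the edited exon. Editing, cloning, time in culture and the loss of BAP1 therefore cannot be told apart in any difference below. The labels call the 2 cultures of a line biological replicates and put all 10 libraries in 1 batch, without saying whether the cultures were grown apart from the start. The p-values measure the spread between the 2 cultures of a line, pooled for each gene over all 5 lines.

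Clone 4 was sequenced to 35.6 and 30.8 M recovered reads and the parental cultures to 37.9 and 40.6 M, within a range of 30.8 to 46.8 M over the 10 libraries. Normalised reads below are recovered reads divided by the library's size factor, and differences are on the deposited stabilised log2 scale, which understates the change of weakly expressed genes. Pairs of values give the parental cultures first unless the sentence says otherwise, and a signed value in brackets is the difference, clone 4 minus parental, with its limma adjusted p. The cultures of clone 4 were further apart than the parental ones: the median absolute difference between 2 cultures over the tested genes was 0.190 in clone 4 and 0.045 in the parental line, and 45 and 0 genes differed by at least 1. That median was 0.169, 0.157 and 0.088 in clones 1, 2 and 3. Since the fit pools the lines, its SEs and p-values can understate the spread of clone 4. All 10 melanocyte defining markers were tested and expressed in every culture. Of 12 keratinocyte, 10 fibroblast, 11 leukocyte and 10 endothelial markers, 2, 1, 2 and 3 were tested. The keratinocyte markers summed to 248.7 and 312 normalised reads in the parental cultures and 336 and 206 in clone 4, and Krt17 had no reads in clone 4. The fibroblast markers summed to 3060.5 and 3092 against 2652 and 1842, nearly all from Col1a2. The leukocyte markers summed to 1331 and 1322 against 2556 and 1365, mostly from Cd68, while Lyz2 fell from 195.2 and 163.5 to 32.3 and 31.7. The endothelial markers summed to 1517 and 1526 against 1208.5 and 1461. These last sums hide opposite moves. Kdr fell from 518.5 and 550.6 to 2.3 and 5.1 and Vwf from 170.3 and 182.1 to 91.0 and 57.0, while Egfl7 rose from 813.2 and 781.3 to 1105.9 and 1391.5. The part of other cells in any difference was not tested, and in such bulk libraries fewer cells that express a gene and less RNA per cell cannot be told apart.

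The knockout label was checked first on Bap1 itself (chromosome 14, 31251352 to 31259930, GRCm38). Parental cultures had 4468 and 4410.1 normalised reads of Bap1, and clone 4 had 493 and 361. The clone 4 cultures were both below every other culture of the 10, since clones 1 to 3 ranged from 658 to 1198. Clone 4 kept 9.62% of the parental mean (difference -2.94, SE 0.12, limma adjusted p = 2.07e-07). Its level was also lower than in each of clones 1, 2 and 3 (difference from their mean -0.94, highest of the 3 limma adjusted p-values 0.007).

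In clone 4, 3941 of 10803 genes (36.5%) passed a limma adjusted p of 0.05 against the parental cultures, of which 2088 (19.3%) were higher and 1853 (17.2%) lower. Large changes on the stabilised scale were mostly falls: 473 genes were lower by at least 1 and 92 by at least 2, while 187 and 12 were higher by as much. The median over all genes tested was 0.04. In all 3941 called genes the 2 clone 4 cultures did not overlap the 2 parental cultures. Genes that were not called can be without overlap too, as Kit and Hps4 were. The share without overlap over all genes tested is not given here, so this count is not read as support for the calls. The shares of 19.3% higher and 17.2% lower are the background for the counts of list members below. The count of calls was 2026 without parental replicate 1 and 1925 without parental replicate 2.

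**Figure D1:**
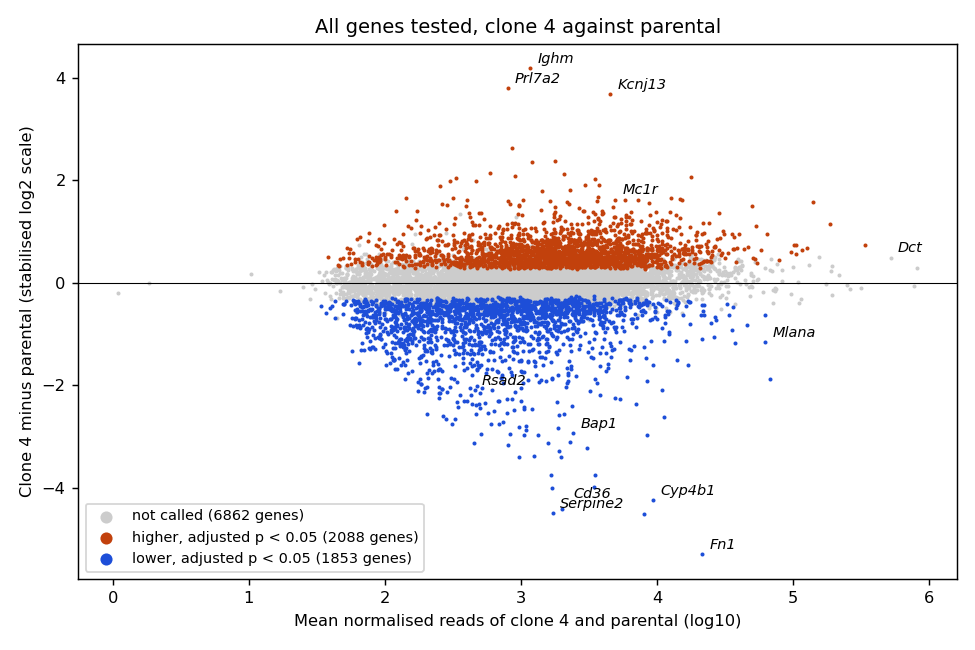
Each point is 1 of the 10803 genes tested, with the log10 of the mean normalised reads of clone 4 and parental on the horizontal axis and the difference (clone 4 minus parental, stabilised log2 scale) on the vertical axis; orange and blue mark the 2088 genes called higher and the 1853 called lower by limma. On this scale the falls reach further than the rises, with Fn1 at -5.30 and Ighm at 4.18. In normalised reads, with 1 read added to each mean, Ighm rose 201-fold and Fn1 fell 47.1-fold.

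The largest fall on the stabilised scale was that of Fn1. In normalised reads, with 1 read added to each mean, Serpine2 (139-fold), Cd36 (68.7-fold) and Masp1 (47.5-fold) fell by more. Fn1, fibronectin of the extracellular matrix, went from 42814 and 41532 normalised reads to 802 and 989 in clone 4, a 47.1-fold fall with 1 read added to each mean (difference -5.30, SE 0.31, limma adjusted p = 1.53e-06). Serpine2, which blocks serine proteases outside the cell, fell from 3403 and 3397 to 23 and 24.1 reads (difference -4.49, SE 0.11, limma adjusted p = 7.36e-09). Both clone 4 cultures were far below both parental cultures for each of these genes. Sparcl1, a matricellular glycoprotein, fell from 15518 and 15466 to 713 and 346 reads (-4.52, adjusted p = 0.000155). Cd36, a scavenger receptor that takes up fatty acids, fell from 3959.8 and 3963 to 95.6 and 17.7 (-4.41, adjusted p = 0.00025). The 2 clone 4 cultures differed widely for Cd36 and for Mt2, a metallothionein that binds zinc, which fell from 6691 and 6299.7 to 654 and 59.5 (-3.99, adjusted p = 0.000364). Cyp4b1, a cytochrome P450, went from 17873 and 17701 to 1059 and 543 (-4.24, adjusted p = 1.03e-06), and Masp1, a serine protease of the lectin pathway of complement, from 3353 and 3291 to 89.9 and 48.1 (-4.0, adjusted p = 4.37e-08).

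The other 8 of the 15 largest falls lay between -3.75 and -3.17. They were the cationic amino acid transporter Slc7a2, the matrix glycoprotein thrombospondin 1 (Thbs1, 3167 and 3229 to 54.1 and 149 reads), the caveolar protein Cavin2, 2310057J18Rik, the sodium-potassium pump subunit Atp1b2, the protein kinase A inhibitor Pkia, the receptor Gpr37 and the anticoagulant protein S (Pros1, 1565 and 1562.5 to 40.3 and 55.7 reads). For all 15 genes each clone 4 culture was at most 10.4% of the lower parental culture. All 15 limma calls held whichever library was left out.

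The largest rises were fewer and took several genes from near silence. Ighm, the constant region of the immunoglobulin mu heavy chain, rose from 9.6 and 11.5 normalised reads to 1849 and 2785, 201-fold with 1 read added to each mean (difference 4.18, SE 0.21, limma adjusted p = 6.43e-07). Ighg2c, another heavy chain gene, had 84.1 and 36.7 reads in clone 4 against 18.2 and 13.3 in the parental cultures (0.51, adjusted p = 0.0157, and up to 0.109 with 1 library left out, without parental replicate 2), and 162 and 153 in clone 3. Jchain had 24.2 and 5.1 reads in clone 4 against 6.7 and 6.2 in the parental cultures, and Mzb1 5.8 and 44.3 against 0 and 0.9, and these 3 genes were picked after the values were seen. Whether the Ighm reads come from a rearranged gene cannot be read from a gene total. Prl7a2, a relative of prolactin known from the placenta, had 9.6 and 4.4 reads in the parental and 1858 and 1331 in the clone 4 cultures (difference 3.79). It passed the filter on low values only through clone 4, where it was high, so this difference is given as a value only. Its near relative Prl7a1, with which reads may be shared, had 14.4 and 19.4 reads in the parental cultures and 76.0 and 60.8 in clone 4. Kcnj13, an inwardly rectifying potassium channel of pigmented epithelium and of pigment cells, rose from 502 and 487 to 7529.6 and 9529 reads (difference 3.68, SE 0.32, limma adjusted p = 1.86e-05). For Ighm, Prl7a2 and Kcnj13 the 2 groups did not overlap, which was a condition for naming the largest rises.

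Mcoln3, a calcium channel of endosomes and lysosomes, rose from 131 and 117 to 1697 and 1479 reads (2.63, adjusted p = 5.96e-07), and Tec, a non-receptor tyrosine kinase, from 458 and 429 to 3838.5 and 2441 (2.38, adjusted p = 5.96e-06). Ecm1, a secreted matrix protein that is among the genes higher in aggressive uveal melanoma, rose from 287 and 244 to 1452 and 2868 (2.35, adjusted p = 0.000769). Nnmt, which methylates nicotinamide, went from 103 and 91.9 to 909 and 751 (1.98, adjusted p = 0.000149), and the cyclic nucleotide phosphodiesterase Pde10a from 39.2 and 46.0 to 503 and 618 (1.98, adjusted p = 1.55e-05). The other 7 of the 15 largest rises lay between 1.91 and 2.14: the peptidase Cpm, the dynein arm subunit Dnai1, Adamtsl4, the synaptotagmin Syt4, Insyn1, the organic anion pump Abcc2 and the phospholipase Pla2g2e. Of the 15, Cpm differed widely between the clone 4 cultures, with 498 and 1685 reads against 88.0 and 106 in the parental cultures. Without clone 4 replicate 2 its difference was 1.41 and it was no longer called.

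**Figure D2:**
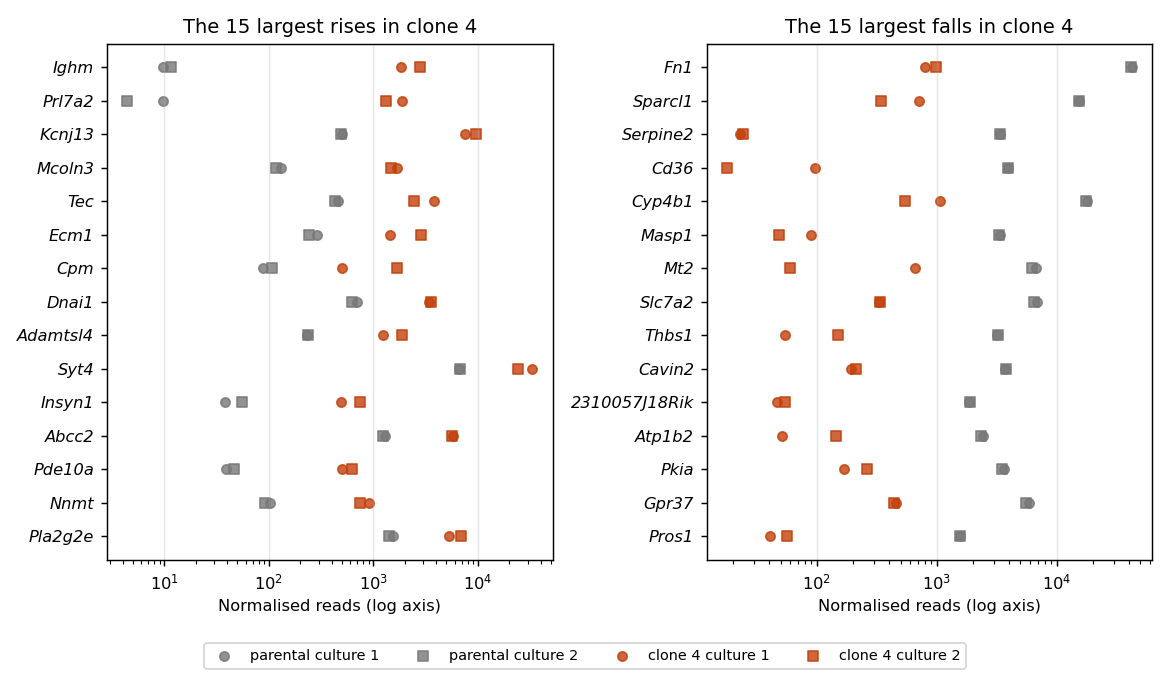
Normalised reads (log axis) of the 15 largest rises (left) and 15 largest falls (right) in each of the 2 parental cultures (grey) and the 2 clone 4 cultures (orange), circles for culture 1 and squares for culture 2. No overlap between the groups was a condition for choosing these 30 genes. The parental cultures lie closer together than the clone 4 cultures for most of them.

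Interferon-stimulated genes were lower in clone 4. Interferons act through transcription factors that bind the interferon-stimulated response element, a sequence that holds GAAA, any 2 bases and GAAA again. The 170 bases before the start of 6 of these genes are shown, each of which holds a match to these letters. They are from RefSeq (GRCm38.p6), 5′ to 3′ on the strand of the gene, with each match on either strand in capitals.
Ifit1 (chr19:34640719-34640888, plus strand): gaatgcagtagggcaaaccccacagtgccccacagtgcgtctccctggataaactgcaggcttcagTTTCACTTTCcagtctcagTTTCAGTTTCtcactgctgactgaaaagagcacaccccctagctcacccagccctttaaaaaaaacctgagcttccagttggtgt
Ifit3 (chr19:34583359-34583528, plus strand): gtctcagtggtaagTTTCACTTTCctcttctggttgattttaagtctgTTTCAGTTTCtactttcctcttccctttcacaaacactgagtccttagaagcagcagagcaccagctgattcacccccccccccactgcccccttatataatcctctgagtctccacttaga
Isg15 (chr4:156200819-156200988, minus strand): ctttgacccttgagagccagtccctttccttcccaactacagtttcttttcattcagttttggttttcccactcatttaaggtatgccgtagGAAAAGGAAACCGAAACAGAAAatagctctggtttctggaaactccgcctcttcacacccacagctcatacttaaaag
Rsad2 (chr12:26456453-26456622, minus strand): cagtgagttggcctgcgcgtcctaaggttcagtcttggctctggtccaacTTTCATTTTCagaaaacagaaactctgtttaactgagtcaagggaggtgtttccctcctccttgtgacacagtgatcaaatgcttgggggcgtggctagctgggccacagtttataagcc
Irgm1 (chr11:48871421-48871590, minus strand): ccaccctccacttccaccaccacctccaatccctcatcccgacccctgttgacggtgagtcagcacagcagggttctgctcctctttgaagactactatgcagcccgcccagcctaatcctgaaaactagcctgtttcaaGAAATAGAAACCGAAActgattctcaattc
Irgm2 (chr11:58214807-58214976, plus strand): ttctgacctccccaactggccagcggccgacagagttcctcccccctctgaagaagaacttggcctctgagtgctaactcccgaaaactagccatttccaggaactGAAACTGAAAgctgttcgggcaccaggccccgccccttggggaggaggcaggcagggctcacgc
The matches begin between 156 and 24 bases before the start, with 3 overlapping matches in Isg15 and 2 in each of Ifit1, Ifit3 and Irgm1. In the full windows of 300 bases (250 before and 50 after the start), 6 of the 9 lower type I genes with a promoter in the table and 3 of the 3 lower interferon-gamma genes held the letters, against 3.99% of 27025 genes and 3.23% of the 8667 tested genes matched by symbol. Of the members that were not called, 1 of 4 type I and 1 of 2 interferon-gamma genes held them. Among MHC class I genes the letters stood in 1 of 5 lower members and 3 of 7 that were not called. These shares describe the lists, and whether the letters had a part in the falls was not tested.

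Of 35 type I interferon genes, 17 were tested, 12 fell (70.6%, against 17.2% of all genes tested) and 0 rose, with a median difference of -0.64. Rsad2, the antiviral enzyme viperin, had 795 and 867 normalised reads in the parental and 69.1 and 95.0 in the clone 4 cultures (difference -2.10, SE 0.16, limma adjusted p = 7.1e-06). Ifit1, which binds foreign RNA, fell from 349 and 331 to 12.7 and 8.9 (difference -1.93, SE 0.30, limma adjusted p = 0.000807). Both clone 4 cultures were low for both genes. Isg15, a ubiquitin-like modifier, fell from 281 and 255 to 38.0 and 30.4 (-1.33, adjusted p = 0.00057), Cmpk2, a mitochondrial nucleotide kinase encoded next to Rsad2, from 364 and 353 to 32.3 and 53.2 (-1.52, adjusted p = 0.00161), and Ifi27 from 2052 and 1916 to 924 and 806.5 (-1.05, adjusted p = 0.000612). The signalling gene Stat2 fell by 0.64 (adjusted p = 0.00712). Mx1 did not pass, at 172 and 184 against 131 and 30.4 reads, nor did Eif2ak2 (-0.18, adjusted p = 0.48). Among 5 tested interferon-gamma genes, the immunity GTPases Irgm1 (616 and 686 to 119.8 and 194 reads, -1.38, adjusted p = 0.00106), Irgm2 (188.5 and 201.5 to 11.5 and 15.2, -1.37, adjusted p = 5.27e-05) and Gbp2 (191 and 171.5 to 16.1 and 24.1, -1.19, adjusted p = 8e-05) fell, and Irf1 and Gbp3 did not pass. The Ifit and Irgm families hold near-copies, among which reads may be split. With 1 library left out the count of falls ran from 9 to 12, while 1 member rose without either culture of clone 1.

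Several genes that load peptides on MHC class I, which shows them to T cells, were lower as well. Tap2, a subunit of the peptide pump, fell from 1223 and 1193 to 205 and 224 reads (difference -1.86, SE 0.10, limma adjusted p = 8.8e-07), and its partner Tap1 from 592 and 566.5 to 160.1 and 219 (difference -1.09, SE 0.14, limma adjusted p = 0.000242). The heavy chains H2-D1 (2198.5 and 2370.3 to 720.0 and 837, -1.36, adjusted p = 0.000776) and H2-Q4 (482 and 461 to 16.1 and 32.9, -2.03, adjusted p = 3.68e-06) belong to a family of near-copies among which reads may be split. B2m, the light chain, fell from 41556 and 41224 to 30397 and 23073.5 (-0.64, adjusted p = 0.0141), and Psmb10, a subunit of the immunoproteasome, rose from 262 and 231 to 531 and 557 (0.79, adjusted p = 0.000221). In all, 6 of 15 tested members fell and 1 rose (median -0.24), and the chaperones Calr, Canx and Pdia3 did not pass. Of 9 tested MHC class II genes and checkpoint ligands 5 fell (55.6%) and 0 rose. Among the falls were Cd47, a signal against phagocytosis (4766 and 4741 to 2239.5 and 1521, -1.28, adjusted p = 0.00012), and Lgals9, galectin 9 (928 and 944 to 260.4 and 458, -1.09, adjusted p = 0.00222). Complement and coagulation genes had 8 falls and 0 rises among 11 tested (72.7% lower, median -1.15). They included C4b (1799.6 and 1719.9 to 153 and 315, -2.30, adjusted p = 1.25e-05, a near-copy of C4a), C1ra, a protease of the classical pathway (231 and 209 to 8.1 and 16.5, -1.49, adjusted p = 1.88e-05), and Cd55, which shields cells from complement (224 and 220.1 to 41.5 and 39.2, -1.09, adjusted p = 0.00145). Without 1 library the limma adjusted p passed 0.05 for B2m (up to 0.0885, without clone 4 replicate 2). The rises in MHC class I numbered 2 without either culture of clone 2, and 1 class II or checkpoint gene rose without either culture of clone 1 or clone 4 replicate 1.

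Most adhesion and matrix lists had more falls than rises. Of 21 tested matrix glycoproteins 8 fell (38.1%) and 3 rose. Besides Fn1, Thbs1 and Sparcl1, Sparc, a matrix protein that binds collagen, fell from 25830.3 and 25095 to 8430.5 and 7989 reads (difference -1.61, SE 0.11, limma adjusted p = 5.31e-06), Emilin1, an elastic fibre protein, from 778 and 772 to 62.2 and 91.2 (-2.06, adjusted p = 7.1e-06), and osteopontin (Spp1) from 105874 and 106166 to 36576 and 22356 (-1.88, adjusted p = 0.000359). The laminin chain Lama4 fell, and Lama5, Lamb2 and Lamc1 did not pass. The median of the list was -0.25, and 0.04 without clone 4 replicate 1. Cadherins and catenins had 6 falls and 0 rises among 9 tested (median -0.64), and 1 rise without clone 4 replicate 1. They included Cdh19 (2292 and 2304 to 450.4 and 528, -1.89, adjusted p = 1.49e-05), plakoglobin (Jup, 387.5 and 375 to 53 and 74.7, -1.38, adjusted p = 2.09e-05) and E-cadherin (Cdh1, 96.6 and 124 to 21.9 and 16.5, -0.83, adjusted p = 0.00046). Of 16 integrin genes and their partners 7 fell (43.8%) and 1 (6.25%), Itgb3, rose (0.40, adjusted p = 0.0492). Integrin beta 8 (Itgb8) fell from 674.5 and 774 to 57.6 and 25.3 (-2.31, adjusted p = 1.66e-05), alpha 1 (Itga1) from 249.7 and 231 to 4.6 and 10.1 (-1.69, adjusted p = 3.35e-05) and alpha 6 (Itga6), which binds laminin, from 1864 and 1696 to 517 and 714 (-1.31, adjusted p = 0.000155), while Itgb1 and Itgav did not pass.

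Among neural adhesion molecules 4 of 11 fell (36.4%) and 2 rose (18.2%). Alcam fell, at 2476 and 2588 against 513 and 569.7 reads (-1.91, adjusted p = 1.01e-06). Mcam, the melanoma cell adhesion molecule, rose, at 6845 and 6824 against 17897 and 18308 (1.38, adjusted p = 3.71e-05). Metalloproteinases had 5 falls and 2 rises among 17 tested (29.4% and 11.8%), led by the fall of Adam19 (1253 and 1208 to 109 and 138, -2.31, adjusted p = 5.96e-07). Of 6 tested proteoglycans 4 fell, led by the glypican Gpc4 (1078 and 1080.0 to 70.3 and 62.0, -2.54, adjusted p = 1.88e-06), and 1 rose. Collagens and their enzymes had 3 falls and 2 rises among 16 tested, with a median of 0.19, on the other side of 0 from the glycoproteins. Their shares of 18.8% and 12.5% were near or below the 17.2% and 19.3% over all genes tested. The limma adjusted p with 1 library left out exceeded 0.05 for Itgb3 (up to 0.237, without parental replicate 2). Falls among the integrins numbered 4 without parental replicate 2, and those among the metalloproteinases 3. The falls among collagens numbered 1 without either parental culture. Rises moved more: with 1 library left out they ran from 1 to 7 for the matrix glycoproteins and for the collagens (7 in both without clone 4 replicate 1), from 0 to 3 for the integrins, from 0 to 4 for the metalloproteinases, from 0 to 1 for the proteoglycans and from 2 to 4 for the neural adhesion molecules.

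The Wnt, receptor tyrosine kinase, TGF-beta and BMP, axon guidance and Notch lists also had more falls than rises. In that order 61.9%, 46.2%, 32.1%, 27.6% and 45.5% of their tested members fell, beside 17.2% of all genes tested. Rises made up 14.3%, 15.4%, 14.3%, 13.8% and 18.2%, beside 19.3%. Some other signalling lists did not lean that way. The Gq pathway had 8 rises and 3 falls, MAPK feedback genes 5 and 1 (25.0% and 5.0%), and immediate early genes 4 and 4. Of 21 tested Wnt pathway genes 13 fell (61.9%) and 3 rose, with a median of -0.54. Sfrp1, a secreted Wnt antagonist, fell from 1234 and 1248 to 97.9 and 161 reads (difference -2.30, SE 0.18, limma adjusted p = 1.04e-05). The receptors Fzd4 (730.0 and 642 to 185.5 and 172, -1.32, adjusted p = 1.76e-05), Fzd7 (12310.0 and 12570.2 to 5143 and 5995, -1.14, adjusted p = 2.38e-05) and Lgr4, which binds R-spondins (1853 and 1874 to 349 and 394, -1.90, adjusted p = 1.82e-05), fell, while the co-receptor Lrp5 rose (1580.5 and 1466 to 2619 and 3578, 0.93, adjusted p = 0.00122). Without parental replicate 1 the falls numbered 8. Receptor tyrosine kinases had 6 falls and 2 rises among 13 tested. Kdr, the VEGF receptor 2, nearly vanished, at 518.5 and 551 reads in the parental cultures and 2.3 and 5.1 in clone 4 (difference -2.60, SE 0.12, limma adjusted p = 3.59e-07), and Ddr2, a collagen receptor, fell from 962.5 and 909 to 51.8 and 60.8 (-2.45, adjusted p = 5.99e-05). The rises numbered 1 without clone 4 replicate 1 or either parental culture. In the TGF-beta and BMP pathway 9 of 28 fell and 4 rose, and the inhibitors of differentiation Id2 (15508 and 15552 to 8028.5 and 6035.5, -1.14, adjusted p = 0.000166) and Id3 (-1.45, adjusted p = 0.000852), which BMP signalling induces, were among the falls. The rises numbered 1 and 0 without parental replicates 1 and 2 and 2 after each chromosome was centred. Of 29 axon guidance genes 8 fell and 4 rose, led by the semaphorins Sema3c (881 and 901 to 20.7 and 0 reads, -3.13, adjusted p = 1.25e-06) and Sema6a (524 and 456 to 10.4 and 16.5, -2.25, adjusted p = 1.05e-06). The rises numbered 1, 1 and 0 without clone 4 replicate 2 and parental replicates 1 and 2, and the median of -0.05 changed sign under another scaling. Notch pathway genes had 5 falls and 2 rises among 11 tested (1 rise without either parental culture), with Notch1 at -1.20 (adjusted p = 0.00106) and Notch2 at -0.87 (adjusted p = 0.000401).

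**Figure D3:**
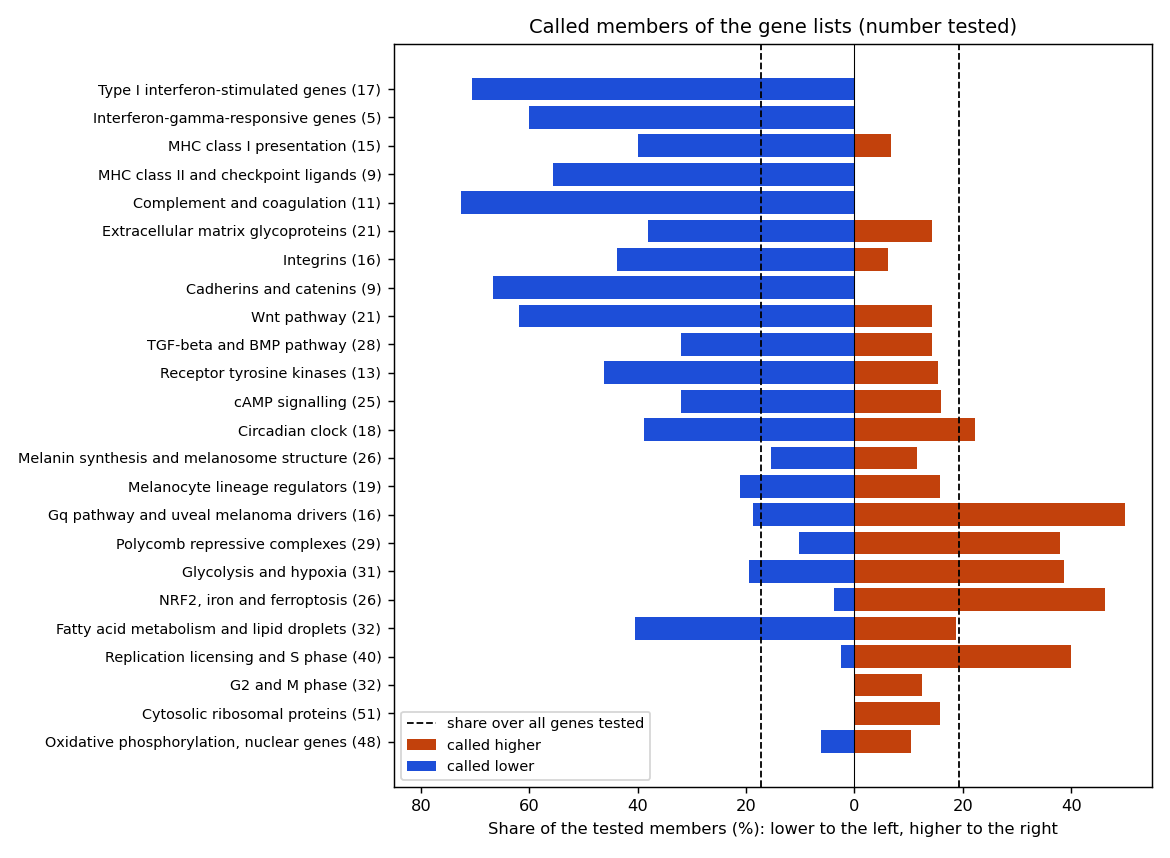
Share of the tested members (in %, number tested in brackets) of 24 gene lists called higher (orange, right) or lower (blue, left) in clone 4 by limma, with the shares over all genes tested (19.3% higher, 17.2% lower) as dashed lines. Interferon, complement, cadherin and Wnt lists reach past the dashed line on the lower side, with 70.6%, 72.7%, 66.7% and 61.9% for type I interferon, complement, cadherins and Wnt.

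Most melanocyte identity genes did not pass the test, and a few changed. Mitf stood at 17339.5 and 17765 reads in the parental cultures and 20469 and 21216 in clone 4 (0.25, adjusted p = 0.0886), Sox10, another lineage factor, at 29567 and 28321 against 25429 and 33897.5 (0.02, adjusted p = 0.937), and Pmel, the scaffold of melanosome fibrils, at 801312 and 779514.5 against 809515.5 and 695444 (-0.07, adjusted p = 0.775). None of the 3 passed. Of 26 genes of melanin synthesis and melanosome structure, all tested, 4 fell and 3 rose (15.4% and 11.5%, below the shares over all genes), with a median of -0.01. Mlana, a melanosome protein, fell from 86615 and 85387 to 47220.4 and 31353 (difference -1.16, SE 0.19, limma adjusted p = 0.00122), Trpm1, a cation channel, from 58545 and 57293 to 37405 and 28559.6 (-0.82, adjusted p = 0.00238) and Tyr, the tyrosinase that starts melanin synthesis, from 41655 and 42193 to 28211 and 31924 (-0.48, adjusted p = 0.022). Gpr143, a receptor that controls melanosome size, rose from 6513 and 6566 to 13699.9 and 10172 (difference 0.83, SE 0.14, limma adjusted p = 0.00112). Dct, the dopachrome tautomerase, was higher in both clone 4 cultures, at 675794 and 546284 against 434751 and 431143, and did not pass (0.49, adjusted p = 0.0555), while Tyrp1 differed by -0.11 (adjusted p = 0.585).

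Mc1r, the melanocortin receptor that raises cAMP in melanocytes, rose from 2351 and 2273 to 6558.5 and 8626 reads (difference 1.62, SE 0.16, limma adjusted p = 4.22e-05). Of 19 tested lineage regulators 4 fell and 3 rose (21.1% and 15.8%, near the shares over all genes), among the falls Irf4, which acts with MITF on Tyr (5722 and 5540.5 to 3093 and 2054, -1.10, adjusted p = 0.000893), Tfap2a (4357 and 4169.7 to 2686.5 and 2642, -0.64, adjusted p = 0.000769) and Sox5 (-1.04, adjusted p = 0.00153). In melanosome transport 3 of 10 rose, Mlph (0.54, adjusted p = 0.00389), Rab17 (0.85, adjusted p = 0.000467) and Rab32 (0.98, adjusted p = 0.00443), and 1 fell, Rab38, which routes tyrosinase to melanosomes (33876 and 33695.5 to 21505 and 19471.5, -0.72, adjusted p = 0.00399). The letters CATGTG, the core of the M-box that MITF binds, or their reverse complement, stood in the promoter windows of 2 of the 3 lower and 2 of the 2 higher melanin genes with a promoter in the table, and in 4 of 16 that were not called. They stood in 15.9% of all 27025 genes and in 9.92% of the 8667 tested genes matched by symbol. With 1 library left out the limma adjusted p exceeded 0.05 for Tyr (up to 0.125, without parental replicate 2). The falls of melanin genes numbered 2 without either parental culture or after each chromosome was centred, and 7 after quantile normalisation, the rises 6 without clone 4 replicate 2, and the falls of transport genes 2 without clone 4 replicate 1.

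Genes tied to uveal melanoma moved in part. Of 16 tested genes of the Gq pathway and uveal melanoma drivers 8 rose and 3 fell (median 0.42). Gnaq, one of the G protein alpha subunits mutated in uveal melanoma, fell from 2656 and 2468 to 1591 and 1508 (-0.66, adjusted p = 0.00149), while its relative Gna11 rose from 4392 and 4062 to 5298 and 6111.5 (0.41, adjusted p = 0.0114). Of their effectors, Plcb4 fell from 503 and 501 to 30.0 and 21.5 (difference -2.07, SE 0.22, limma adjusted p = 8.09e-05) and Plcb3 rose from 2044.5 and 2108 to 3276 and 4702 (difference 0.86, SE 0.15, limma adjusted p = 0.00176). The protein kinase C Prkcd rose (0.72, adjusted p = 0.000842) and Prkce fell (-0.56, adjusted p = 0.00636). The rises numbered 5 and 3 without parental replicates 1 and 2. Of the genes that are higher in class 2, the uveal melanomas that spread, Ecm1 rose and Cdh1 and Rab31 fell, and of 6 tested genes that are lower in class 2, Robo1 (-1.57, adjusted p = 2.66e-05), Satb1 (-1.07, adjusted p = 8.47e-05) and Id2 fell and Lta4h rose (0.71, adjusted p = 0.000383). The last list had 5 falls without clone 4 replicate 1, and the falls in the former numbered 1 without clone 4 replicate 2 or either parental culture. Limma adjusted p-values above 0.05 with 1 library left out were found for Gna11 (up to 0.122, without parental replicate 2), Prkce (up to 0.0637, without parental replicate 2) and Rab31 (up to 0.0923, without parental replicate 2).

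Among BAP1's own partners, Foxk2 (4223 and 4104 to 5253 and 5858 reads, 0.40, adjusted p = 0.0198) and Mbd6 (0.49, adjusted p = 0.0293) rose and the other 9 tested besides Bap1 did not pass, among them Asxl1 (3299.7 and 3156 against 2986 and 3509.6 reads) and Hcfc1. Polycomb genes had 11 rises and 3 falls among 29 tested (37.9% and 10.3%, median 0.20). Of the 11 rises, 3 were on chromosome 5, where all 3 tested members rose and whose genes were higher as a whole. After each chromosome was centred the rises numbered 8 and the falls 2. L3mbtl2, of a variant Polycomb complex, rose from 5545 and 5502 to 11652 and 10723 (difference 0.99, SE 0.10, limma adjusted p = 5e-05). Ezh2, the methyltransferase of Polycomb repressive complex 2, rose from 658 and 636 to 972 and 1104 (0.56, adjusted p = 0.00691). Rnf2, which ubiquitinates H2A, fell from 3367 and 3612 to 3069 and 2332 (-0.36, adjusted p = 0.0474), and its paralog Ring1 rose (0.43, adjusted p = 0.0204). Calls ended with 1 library left out, by limma adjusted p, for Foxk2 (up to 0.13, without parental replicate 2), Mbd6 (up to 0.168, without clone 4 replicate 2), Ezh2 (up to 0.0584, without parental replicate 2), Rnf2 (up to 0.24, without parental replicate 2) and Ring1 (up to 0.111, without parental replicate 1). The rises among the partners numbered 0 without clone 4 replicate 2, without a parental culture or after quantile normalisation. The Polycomb rises numbered 6 and 4 without parental replicates 1 and 2, and the falls 1 without a culture of clone 2, clone 3 or clone 4 replicate 2 and 0 without a parental culture.

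Metabolic genes moved in both directions. Of 26 genes of the NRF2 response, iron and ferroptosis 12 rose (46.2%) and 1 fell. Fth1, the heavy chain of the iron store ferritin, rose from 71373 and 68467 to 210778 and 208289.7 reads (difference 1.58, SE 0.16, limma adjusted p = 5.24e-05), Srxn1, sulfiredoxin, from 7495 and 7295 to 23255 and 22968 (difference 1.62, SE 0.13, limma adjusted p = 1.16e-05) and G6pdx, the first enzyme of the pentose phosphate pathway, from 2378 and 2436 to 6436 and 7723 (difference 1.48, SE 0.14, limma adjusted p = 3.23e-05). Each clone 4 culture of these 3 genes was above each parental culture, which adds no support, since no called gene overlapped between the 2 groups. The regulators Nfe2l2 and Keap1 did not pass. The rises numbered 7 without either parental culture, and the falls 3 without clone 4 replicate 1 and 5 after quantile normalisation. In glycolysis and hypoxia 12 of 31 rose and 6 fell (38.7% and 19.4%). The glycolytic enzymes Pfkl (5399 and 5107 to 9601 and 10923, 0.94, adjusted p = 0.000381), Tpi1 (25909.7 and 25684 to 49816 and 46094, 0.89, adjusted p = 0.00106) and Hk1 (3539 and 3405 to 7054 and 10939, 1.29, adjusted p = 0.00159) and the glucose transporter Slc2a1 (0.77, adjusted p = 0.000215) rose. Ndrg1, a stress-induced gene that hypoxia raises, fell from 15299 and 14965 to 1652 and 1843.5 (difference -2.98, SE 0.12, limma adjusted p = 1.26e-07), and Ldhb, Bnip3 and Pdk3 fell by 1.26, 1.00 and 1.05. The rises numbered 7 without parental replicate 2.

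Fatty acid and lipid droplet genes had 13 falls and 6 rises among 32 tested (40.6% and 18.8%). Besides Cd36, Hsd17b11, a lipid droplet dehydrogenase, fell from 1947 and 2125 to 123 and 152 (-2.88, adjusted p = 1.88e-06) and Fabp5, a fatty acid binding protein, from 11844 and 11527 to 2860.5 and 1567 (-2.36, adjusted p = 4.8e-05), while the droplet coat protein Plin3 (0.96, adjusted p = 0.000138) and the triglyceride enzyme Dgat1 (0.76, adjusted p = 0.00109) rose. Falls numbered 7 and 8 without parental replicates 1 and 2. Of 38 lysosomal genes 9 rose and 4 fell, shares of 23.7% and 10.5% beside 19.3% and 17.2% over all genes tested. The channels Mcoln1 (0.86, adjusted p = 0.000587) and Tpcn1 (1.03, adjusted p = 0.000497) rose beside Mcoln3, and the median of the list changed sign after quantile normalisation. The falls numbered 2 without either parental culture and 8 after quantile normalisation. Of 24 cholesterol genes 5 rose and 4 fell, of 48 nuclear genes of oxidative phosphorylation 5 and 3, shares of calls near or below the background, and both counts moved with the library left out (2 to 9 rises and 1 to 6 falls for cholesterol, 1 to 7 rises and 1 to 11 falls for oxidative phosphorylation).

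Genes of DNA replication rose in part. Of 40 tested S-phase genes 16 rose and 1, Pola1, fell, with a median of 0.35. Dut, which removes dUTP, rose from 484 and 477 to 1111 and 1529.5 reads (difference 1.17, SE 0.17, limma adjusted p = 0.000501), E2f1, the transcription factor of the G1/S step, from 311 and 298 to 631 and 1123 (difference 1.11, SE 0.19, limma adjusted p = 0.00144) and Mcm6, a subunit of the replicative helicase, from 605 and 644 to 931 and 1495 (difference 0.76, SE 0.16, limma adjusted p = 0.00449). Of the 16 rises, 8 were on chromosome 5 (Mcm7, Cdc7, Dbf4, Rfc2, Rfc3, Tyms, Ung and Slbp), which holds 10 of the 40 tested members and whose genes were higher as a whole, as described with the chromosomes. The rises numbered 8 without either parental culture, 25 without clone 4 replicate 1, and 10 after each chromosome was centred, and the falls ran from 0 to 2 with 1 library left out. Of 32 genes of G2 and M phase 4 rose (12.5%) and 0 fell, with 2 rises without either parental culture, 10 after quantile normalisation and 1 fall without clone 4 replicate 2, and Mki67, a proliferation marker, stood at 67.9 and 62.7 against 41.5 and 84.8 reads. Cyclin D1 (Ccnd1) rose from 4325 and 4242 to 10735 and 15762 (difference 1.56, SE 0.24, limma adjusted p = 0.000732) within the MAPK feedback genes, of which 5 of 20 rose and 1 fell (2 to 8 rises, and 0 or 1 falls, with 1 library left out). Cytosolic ribosomal proteins, many of which have pseudogene copies, had 8 rises and 0 falls among 51 tested, a share of 15.7% that is below the 19.3% over all genes, and 2 to 20 rises with 1 library left out. With 1 library left out, calls ended for Pola1 (up to 0.136, without parental replicate 2).

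Clock genes changed in both arms of the loop. Of 18 tested 7 fell and 4 rose (38.9% and 22.2%). Bmal1, the activator, fell from 626 and 590.4 to 137 and 140.5 reads (difference -1.38, SE 0.10, limma adjusted p = 5.21e-06), and so did its targets Dbp (2746 and 2752 to 559 and 676, difference -1.88, SE 0.12, limma adjusted p = 3.1e-06), Nr1d1 (1379 and 1300.1 to 261.5 and 352, -1.67, adjusted p = 1.16e-05), Tef (6726 and 6787 to 2369 and 2381.5, -1.44, adjusted p = 0.000208) and Per3 (-0.89, adjusted p = 0.00183). The repressors Cry1 (629.5 and 555 to 1219 and 1029, 0.76, adjusted p = 0.000561) and Cry2 (0.54, adjusted p = 0.00323) rose, and Nfil3, which opposes Dbp, rose by 0.59 (adjusted p = 0.00657). Clock, Per1, Hlf, Rora, Ciart, Bhlhe40 and Bhlhe41 did not pass, so the list did not move as a whole. The sources used here do not give the time of day at which cultures were taken. In cAMP signalling 8 of 25 fell and 4 rose: beside Mc1r and Pde10a, the cyclase Adcy7 rose (445 and 476 to 1206 and 1704, 1.34, adjusted p = 0.000276) and Adcy2 fell (-0.85, adjusted p = 0.000779), and the phosphodiesterase Pde1c fell (779 and 836 to 154 and 162, -1.61, adjusted p = 1.42e-05). The limma adjusted p reached past 0.05 with 1 library left out for Nfil3 (up to 0.0555, without parental replicate 2).

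To see what set clone 4 apart from the other knockout clones, it was tested against each of them in the same fit. Clone 4 differed from the mean of clones 1 to 3 at 2783 genes (25.8%), 1556 higher and 1227 lower, and at 1835 without clone 3 replicate 1. A gene was called particular to clone 4 when it passed against the parental line and against each of clones 1, 2 and 3 with one sign, which 586 genes (5.42%) did, 313 (2.9%) higher and 273 (2.53%) lower. That count was 216 and 280 without clone 3 replicates 1 and 2, and 320 and 318 without parental replicates 1 and 2. Fn1 led the falls: clones 1 to 3 had 9364 to 45855.5 reads against 802 and 989 in clone 4 (difference from their mean -3.83, adjusted p = 9.24e-06). It was also lower than in the parental line in clones 2 and 3 (-1.86 and -2.05, limma adjusted p = 0.00184 and 0.000602), and did not pass in clone 1 (-0.47). Cyp4b1 followed at -3.55, with 7971.5 to 12925 reads in clones 1 to 3. Against the parental line it differed by -0.59, -0.88 and -0.60 in clones 1, 2 and 3, and passed in clone 2 (limma adjusted p = 0.0195).

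The other clones stood at different levels for these genes. Cd200r4, an activating receptor in a family of near-copies, stood at 964 and 1016 reads in the parental cultures, 2656 and 3242 in clone 1, 324 to 742.5 over clones 2 and 3, and 27.6 and 11.4 in clone 4 (difference from the mean of clones 1 to 3 -2.90). Ahnak, a giant scaffold protein under the membrane, stood at 9106 and 8845 in the parental line, 6506.5 to 17226 in clones 1 to 3 and 1931 and 1505 in clone 4 (-2.48). Vgll3, a cofactor of TEAD transcription factors, was at 2067.5 and 2111 in the parental line, higher in every culture of clones 1 to 3 and at 410.1 and 541 in clone 4 (-2.39). Masp1, the protein kinase C Prkcq and the transcriptional coregulator Cited2 differed from that mean by -2.78, -2.23 and -2.22. Each was also lower than in the parental line in other clones, with differences for Masp1 of -0.72, -1.11 and -1.83 in clones 1, 2 and 3, for Cited2 of -1.32 and -0.81 in clones 2 and 3, and for Prkcq of -0.94 in clone 3 (limma adjusted p at most 0.0289). Vimentin (Vim), an intermediate filament protein, was chosen after its values were seen: it fell from 19363 and 19755 to 2749 and 3336 reads in clone 4 and is among the 273 (difference -2.62, SE 0.21, limma adjusted p = 1.3e-05).

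Of the rises particular to clone 4, Dhrs3, which reduces retinal, ran opposite to the other clones. Its parental level was 5123 and 5327.5 reads. Clones 1, 2 and 3 had less, with 3954 and 2955, 1491 and 1876 and 742 and 769, and clone 4 had 8788 and 11371 (difference from the mean of clones 1 to 3 2.46, adjusted p = 1.92e-06). Cited1, a transcriptional coregulator known from melanocytes, stood at 6003 and 5791 in the parental cultures and 15476 and 23557 in clone 4, above all other cultures (1.61), while its relative Cited2 fell. Rapgef3, the cAMP sensor EPAC1, rose from 1098 and 1038 to 3169 and 6420.4 (1.67), and the tetraspanin Tspan32 from 2052 and 2067 to 4312 and 6284 (1.63). Prl7a2, Ighm, Nnmt and Kcnj13 completed the 8, with 3.04, 2.73, 1.86 and 1.67. The 3.04 of Prl7a2 is a value only, since that gene passed the filter on low values only through clone 4. For Ighm, Prl7a2 and Kcnj13 all 6 cultures of clones 1 to 3 lay between the parental and the clone 4 cultures.

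**Figure D4:**
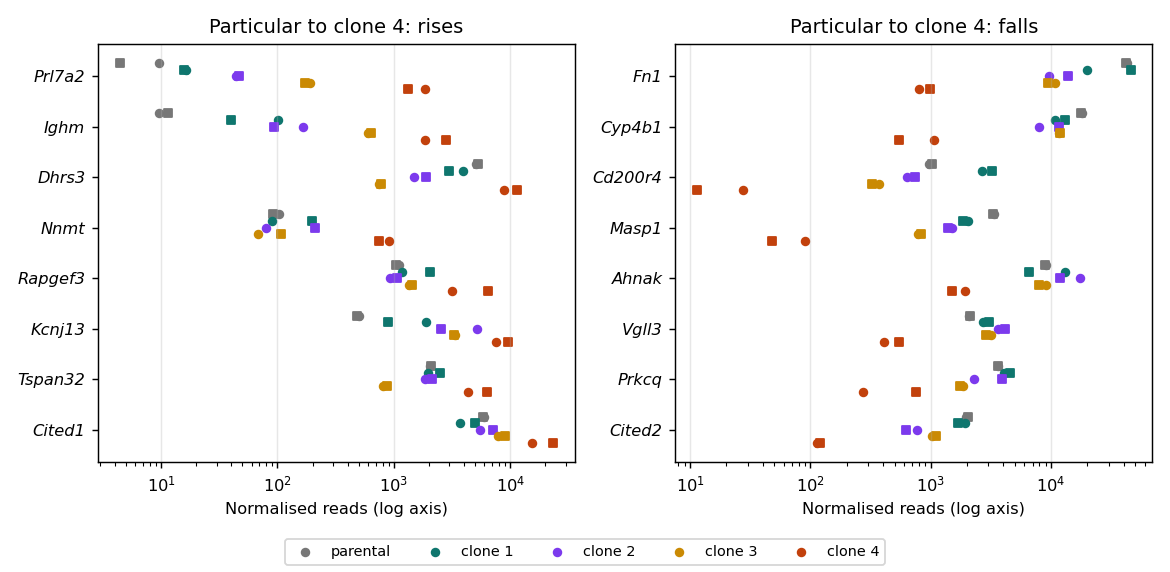
Normalised reads (log axis) of the 8 largest rises (left) and 8 largest falls (right) particular to clone 4, with 2 points (circle and square, the 2 cultures) for the parental line and each of clones 1 to 4. The clone 4 points stand at 1 end of each row, and Dhrs3 stands below the parental cultures in clones 1 to 3 and above them in clone 4.

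Mrgprb1, a receptor known from mast cells, was high in clones 1 to 3 and low in clone 4. It stood at 6.7 and 6.2 reads in the parental cultures and 18.4 and 10.1 in clone 4, which did not pass (0.17, adjusted p = 0.293). In clones 1 to 3 it had 1005 to 9079 reads (difference of clone 4 from their mean -4.21). Mrgprx2 had 1.0 and 3.5 reads in the parental cultures, none in clone 4 and 159 to 1846 in clones 1 to 3 (difference from their mean -2.64). Both genes passed the filter on low values through clones 1 to 3, where they were high. Their differences from those clones are therefore given as values only. Reads of this family may be shared among its members. Both genes lie on chromosome 7.

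Whole chromosomes were shifted in clone 4. For each chromosome the median log2 ratio of normalised reads to the parental mean (1 read added) over its tested genes was set against the median over all autosomal genes. The 808 genes of chromosome 7 stood at -0.33 and -0.25 in the 2 clone 4 cultures, the 384 of chromosome 12 at 0.31 and 0.27, the 708 of chromosome 5 at 0.26 and 0.28 and the 270 of chromosome 18 at 0.24 and 0.18. In clones 1 to 3 the cultures ran from -0.06 to 0.07 for chromosome 7 and from -0.27 to 0.02 for chromosome 12. For chromosome 18 they ran from -0.19 to -0.11. Chromosome 5 was higher in clone 3 as well, at 0.40 and 0.41, and stood at 0.03 to 0.05 in clones 1 and 2. In the mean of the 2 cultures, all 10 equal runs of genes along chromosome 7 had a median below 0 (-0.41 to -0.17), and all 10 along chromosome 12 (0.07 to 0.47) and chromosome 5 (0.08 to 0.45) one above 0. The DNA copy number of the clone is not analysed here, and genes of a chromosome are not replicates, so no test is given.

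The calls against the parental line on chromosomes 7, 12 and 5 leaned to the same side. On chromosome 7, 265 genes (32.8%) were called lower and 41 (5.07%) higher, while on chromosome 12 the lower and higher counts were 37 (9.64%) and 157 (40.9%) and on chromosome 5 they were 72 (10.2%) and 280 (39.5%). Of the 273 falls particular to clone 4, 73 lay on chromosome 7 (9.03% of its tested genes, beside 2.53% over all genes tested). Of the 313 rises 75 lay on chromosome 12 (19.5% of its tested genes) and 36 on chromosome 18 (13.3%), while chromosome 5 held 17 (2.4%), below the 2.9% over all genes tested. With every chromosome centred on its own median, 412 genes were particular to clone 4 in place of 586. Of the pigment genes on chromosome 7, Tyr, Trpm1, Hps5 (-0.39, adjusted p = 0.0077) and Rab38 fell, Oca2 (0.04), Bloc1s3 (-0.04) and Sytl2 (-0.43) did not pass, and the imprinted genes Ube3a (-0.56, adjusted p = 0.00796), Cd81 (-0.38, adjusted p = 0.0261) and Kcnq1ot1 (-0.54, adjusted p = 0.00692), a non-coding RNA that overlaps Kcnq1, fell, while Tssc4 and Slc22a18 did not pass. Bmal1, Dbp and Htatip2 lie there too. The interferon genes Rsad2, Cmpk2 and Ifi27 lie on chromosome 12 and fell there, whereas Ighm rose at the far end of that chromosome (113418826 to 113422730), in the last and highest of its 10 runs (0.52 and 0.57 in the 2 cultures). The pigment genes Slc24a4 on chromosome 12 and Kit and Hps4 on chromosome 5 differed by 0.24, -0.39 and 0.35 and did not pass. Without 1 library the adjusted p by limma exceeded 0.05 for Hps5 (up to 0.0927, without parental replicate 1), Ube3a (up to 0.0612, without parental replicate 1), Cd81 (up to 0.144, without parental replicate 2) and Kcnq1ot1 (up to 0.0832, without parental replicate 2).

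**Figure D5:**
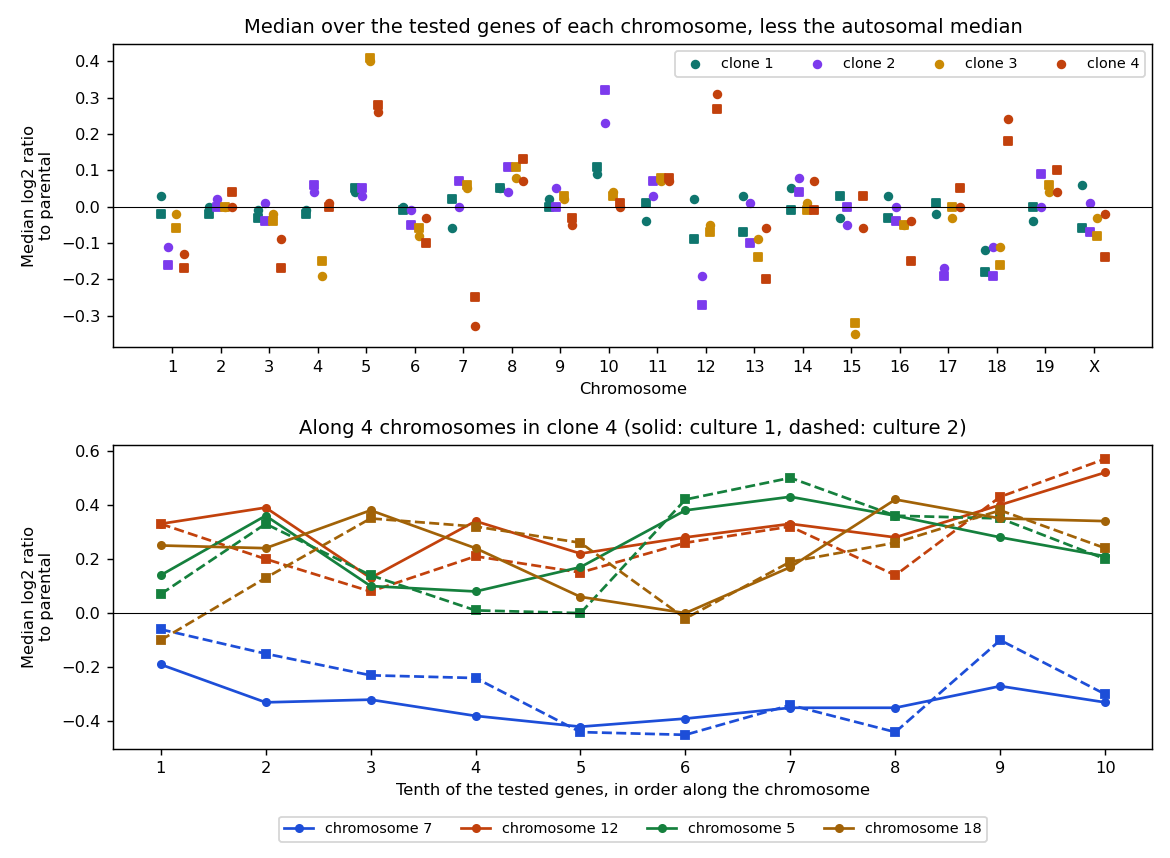
Top, the median log2 ratio to the parental mean over the tested genes of each chromosome, less the autosomal median, with 2 points (circle and square, the 2 cultures) for each of clones 1 to 4. Bottom, the same for clone 4 in 10 equal runs of genes along chromosomes 7, 12, 5 and 18; chromosome 7 stays below 0 and chromosome 12 above 0 in both cultures.

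Some genes had no reads at all in clone 4. Among all genes of the table, 127 had no reads in either clone 4 culture, against 14 in the parental line and 15, 11 and 61 in clones 1, 2 and 3, at depths of 35.6 and 30.8 M reads. Of the 127, 35 averaged at least 20 normalised reads in the parental cultures and 3 were tested. Htatip2, an oxidoreductase gene (chromosome 7, 49759045 to 49774000), had 468 and 344 reads in the parental cultures, 1.5 and 0 in clone 1 and at least 499.6 in every culture of clones 2 and 3. With 3 reads over both clone 4 libraries as the limit that a count of 0 allows, it was at least 224-fold lower than in the parental cultures (difference -2.57, SE 0.13, limma adjusted p = 5.96e-07). H2-DMb1, which helps load peptides on MHC class II, had 135 and 123 reads in the parental cultures and was at least 71.2-fold lower (limma adjusted p = 1.04e-05), with 4.4 and 3.4 reads in clone 1. Genes that were not tested include the interferon-induced GTPase Tgtp2 (209.5 and 222 parental reads), the junction protein Jam2 (152 and 148.5), the aspartoacylase Aspa (120.5 and 164), the myelin protein gene Pmp22 (55.5 and 72.5) and the POU factor Pou3f1 (55.5 and 51.3), which were picked after the values were seen. Each of these 5 had no reads in clone 4, which allows up to 1.81 normalised reads as a mean of the 2 cultures. Low values were not limited to clone 4: Pmp22 had at most 4.4 reads in any culture of clones 1 to 3, while in clones 2 and 3 Tgtp2 had 0 to 12.4, Jam2 1.8 to 6.3 and Aspa 1.2 to 7.2. Pou3f1 had 0 to 2.1 in clone 3 and 22.9 to 136 in clones 1 and 2.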

How the data were processed

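Polyadenylated RNA of the 5 Melan-a lines was sequenced from stranded libraries, per the labels' protocols. The deposited table holds log2-like, variance-stabilised values for 10 libraries, per the file headers. The submitters' processing notes name the builds GRCm38 and mm10. The sources used here do not give the aligner, counter or stabilising package. The stabilisation was inverted to reads, and all values came out whole within 0.01 (100.0%).

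Genes with a mean at least 1 above the minimum (6.61) were fitted with limma 3.58.1 in R 4.3.3 (5 groups, mean-variance trend, Benjamini-Hochberg adjustment, threshold 0.05), and the procedure was tested on simulated data. Because the table holds no counts, limma-voom on recovered reads was the count-based alternative. Named genes are the 15 largest called rises and 15 largest falls, 8 each way particular to clone 4 and at most 5 each way per list. Exceptions are stated in the text. For the 15 largest each way, no overlap between the clone 4 and the parental cultures was a condition, which all 3941 called genes met. The comparison, its gene lists and their members were chosen with earlier results of these data known. In the lists, 4 genes were matched by a newer symbol. Positions came from RefSeq. Counting intervals and limits cover counting error only.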

Additional observations from a re-analysis of the deposited data

Results flagged for a closer look

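Clone 4 differed from the other knockout clones at 16 named genes, by a limma test of clone 4 against the mean of clones 1 to 3 and against each of the 3 clones in the same fit. The differences from the mean of clones 1 to 3 on the stabilised log2 scale were Prl7a2 (3.04), Ighm (2.73), Dhrs3 (2.46), Nnmt (1.86), Rapgef3 (1.67), Kcnj13 (1.67), Tspan32 (1.63) and Cited1 (1.61) for the rises and Fn1 (-3.83), Cyp4b1 (-3.55), Cd200r4 (-2.90), Masp1 (-2.78), Ahnak (-2.48), Vgll3 (-2.39), Prkcq (-2.23) and Cited2 (-2.22) for the falls. Prl7a2 passed the filter on low values only through clone 4, so its difference is a value only. For the others the limma adjusted p-values against that mean ran from 1.8e-07 (Cd200r4 and Masp1) to 0.00147 (Kcnj13). Their base is 2 cultures of 1 clone, and clones 1 to 3 are 1 line each.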

How the results depend on the processing

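With 1 library left out at a time, the genes changed in clone 4 numbered 1925 to 4316, those differing from the mean of clones 1 to 3 numbered 1835 to 3200 and those particular to clone 4 numbered 216 to 737. The lowest counts came without a parental culture for the first and without a clone 3 culture for the other two. Leaving out a library reduces the samples and residual degrees of freedom, and a line left with 1 culture is assumed to vary like the others. Under the other alternatives the changed genes numbered 3249 (stricter filter on low values) to 4617 (replicate block). The labels do not say that a replicate number marks a shared day or batch. Same-numbered deviations correlated over genes at -0.07 for parental and clone 4, at -0.13 to -0.07 for parental and each clone, at 0.32, 0.11 and -0.03 for clone 4 and clones 1, 2 and 3, and at 0.31 to 0.73 among clones 1 to 3, so not every pair passed 0.1 and the numbers were not used as a pairing. The fit with the replicate block called 4617 genes, 3940 of them among the 3941, with 3446 against the mean of clones 1 to 3, 770 particular to clone 4, and Bap1 at -2.94. Of the 39 genes named for the largest changes or as particular to clone 4, 38 were called against the parental line under every alternative, and Cpm was not without clone 4 replicate 2 (adjusted p by limma 0.0559). Members of the gene lists that lost a call with 1 library left out are given beside their values. Depth limits the genes near 0 reads, of which 2399 were not tested. The alternatives for list counts were added after the data were seen.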
